A study of Mus musculus with 6 samples.

Results

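The vascular genes of the pancreatic islet were followed here as 10 members chosen by name, of 54119 genes with reads assigned: the growth factor gene Vegfa and 9 genes of blood vessel endothelium, Kdr, Flt1, Pecam1, Cdh5, Plvap, Esam, Emcn, Tek and Tie1. Polyadenylated RNA was sequenced from islets picked by hand from male mice of strain C57BL/6, postnatal day 24, namely 3 Dpy30 knockout mice and 3 control mice, with 1 mouse per library. DPY30 is a shared subunit of the complexes that methylate lysine 4 of histone H3, and the question of the series is the need for that mark in the postnatal maturation of endocrine cells. No Cre driver, deleted exon or control allele is named in the labels, so the cells that lost DPY30 cannot be named from them.

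Islets are among the most densely vascularised of tissues, and their capillaries are fenestrated so that hormones pass quickly into blood. Endocrine cells, beta cells above all, secrete VEGF-A, which binds the receptors VEGFR2 (encoded by Kdr) and VEGFR1 (Flt1) on neighbouring endothelial cells and is needed to form and keep the dense, fenestrated capillary bed. The angiopoietin receptor TIE2 (Tek) and its partner TIE1 act on the stability of the vessel wall, and junction and surface proteins hold the endothelial layer together.

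The libraries held 22694892, 17131515 and 23976598 estimated reads in knockout replicates 1 to 3, against 25208847, 25354384 and 24575889 in control replicates 1 to 3. Transcripts that lack an exon of 143 bases held 80.5 to 82.2% of Dpy30 reads in knockout libraries and 0.438 to 5.24% in control libraries; this exon was picked by comparing the groups. All Dpy30 transcripts together read 31.9, 53.2 and 30.7 CPM (read counts relative to the TMM-scaled library size) in knockout islets and 25.6, 30.2 and 31.8 in control islets (log2 fold change 0.40, adjusted p = 0.298, by edgeR's test). That value was 0.10 without knockout replicate 2, and 0.99, past the threshold in edgeR (adjusted p = 0.0296), when transcript length entered as an offset. Knockout replicate 2 stood apart, with 14.7% of its reads from the predicted gene Gm42418, against 0.099 to 0.236% in the other libraries. In that library genes above 8 CPM with an average transcript over 4000 bases lay at a median of -0.28. This is relative to their mean over 6 libraries on the log2 scale, and those under 2000 bases lay at 0.22. In knockout replicates 1 and 3 the long genes lay at 0.03 and -0.00 and the short genes at 0.02 and -0.00. In control replicates 1 to 3 the long genes lay at 0.12, 0.09 and 0.05. The short genes lay at -0.12, -0.07 and -0.04 there, so every control library had long genes above short ones. Insulin genes took 6.51 to 9.66% of reads in knockout libraries and 13.6 to 21.9% in control libraries. The tissue label held in all 6 libraries, since endocrine cell genes summed to 235000 to 367300 CPM per kilobase in knockout islets and 557500 to 782600 in control islets.

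Mean levels of all 10 genes lay above those of control islets in knockout islets, by 0.16 on the log2 scale for the VEGF receptor gene Kdr, the smallest difference, and by 0.90 for Pecam1, the largest. All 10 members were abundant enough to be tested. Of these, 4 were called higher and 0 lower (Pecam1, Plvap, Esam and Emcn), at an adjusted p below 0.05 over 16430 genes in edgeR's quasi-likelihood test, where 4.1% of all tested genes were called higher and 5.84% lower. For 7 members every knockout library lay above every control library, as it did for 17.6% of tested genes. The median log2 fold change of the members was 0.59, against 0.01 over all tested genes, and 10 of 10 were positive. The members were chosen with results of these data known, so these counts are a description. In bulk RNA, more endothelial cells in the islets, more of these transcripts per endothelial cell and less RNA from the endocrine cells cannot be told apart.

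**Figure D1:**
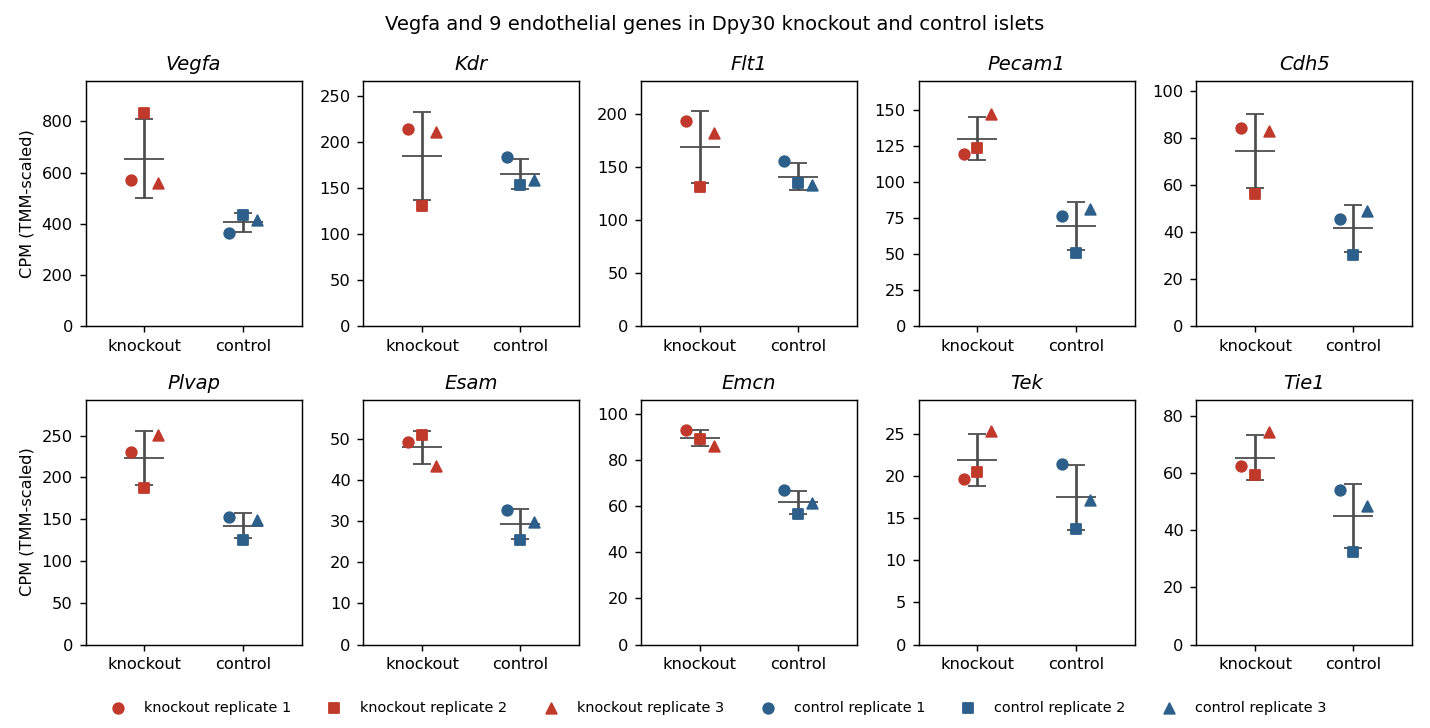
TMM-scaled CPM of Vegfa and the 9 endothelial genes in each library, knockout at the left and control at the right of each panel, with 1 marker per replicate and a line at the group mean with its SD. Pecam1 lay at 119.7 to 147.0 CPM in knockout and 50.6 to 81.4 CPM in control libraries, while the groups overlapped for Kdr, Flt1 and Tek.

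The calls depended on single libraries. Leaving out 1 library at a time left 0 to 4 members called: 0 without knockout replicate 1, control replicate 2 or control replicate 3, 1 (Esam) without knockout replicate 3 or control replicate 1, and 4 without knockout replicate 2. These last were Cdh5, Plvap, Esam and Emcn, in a fit that called 3.26% of its genes higher. DESeq2 called 6 members, adding Vegfa and Cdh5 (7.31% of genes higher), and the replicate number as a block gave 5, adding Cdh5 (6.93% of genes higher). Acinar genes, markers of exocrine tissue carried along with picked islets, also differed between libraries: their median deviation from the mean of 6 libraries was 0.57, -0.47 and 2.10 on the log2 scale in knockout replicates 1 to 3 and -0.47, 0.09 and -1.85 in control replicates 1 to 3. Their summed level was 3493 to 19080 CPM per kilobase in knockout and 1250 to 4638 in control islets, with 17 of 18 tested acinar genes at a positive log2 fold change. With the acinar level as a covariate 0 members were called (1.26% of genes higher), with adjusted p-values of 0.052 to 0.884, while the members' median log2 fold change was 0.56. The endothelial members had a median deviation of 0.34, 0.09 and 0.39 in knockout replicates 1 to 3. In control replicates 1 to 3 it was -0.15, -0.50 and -0.21. Of the knockout libraries, replicate 2 was lowest for both the acinar genes and the endothelial members. The part of acinar tissue in the members' values was not tested. The authors' deposited table lists 6 of the 10 members as higher at an adjusted p below 0.05 and 0 as lower.

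**Figure D2:**
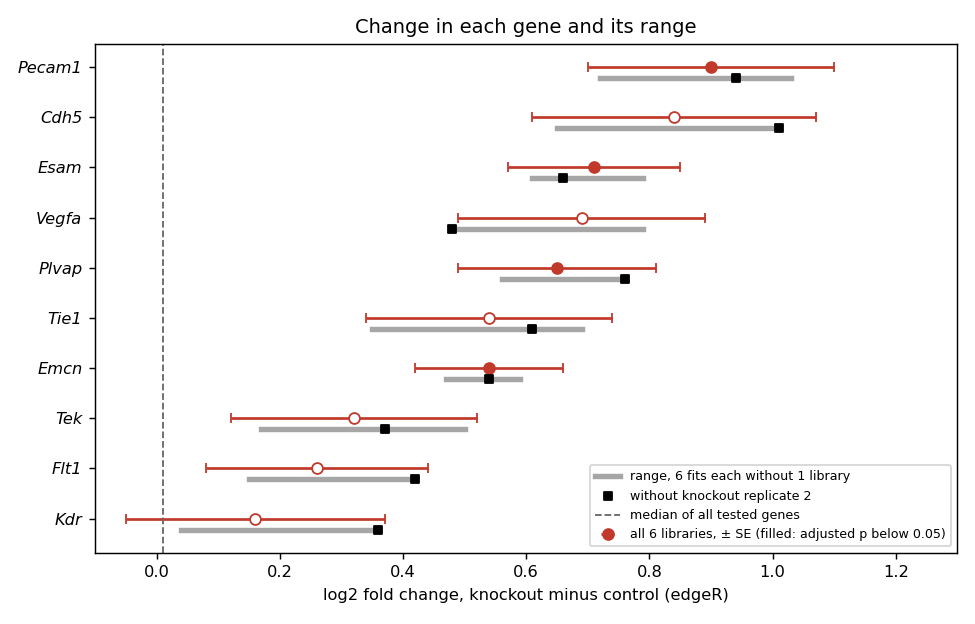
Log2 fold change of each member, knockout minus control, with its SE from edgeR over all 6 libraries (filled circles have an adjusted p below 0.05), and below it in grey the range over 6 fits that each left out 1 library, with a black square for the fit without knockout replicate 2. The dashed line is the median of all tested genes, and Kdr ranged from 0.04 to 0.36, while Pecam1 ranged from 0.72 to 1.03.

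Vegfa (chr17:46016993-46032369, minus strand, GRCm38), the ligand, read 569.2, 831.9 and 559.1 CPM in knockout islets, against 365.4, 435.0 and 416.0 CPM in control islets. Every knockout library lay above every control library, and knockout replicate 2 was highest. Vegfa has an average effective length of 1887 bases, and genes under 2000 bases lay at a median of 0.22 in that library. The means were 653.4 ± 154.6 CPM in knockout and 405.5 ± 35.95 CPM in control islets (SD, n = 3 each). The log2 fold change of 0.69 (SE 0.20) missed the threshold (adjusted p = 0.0668, in the edgeR fit), and passed it in DESeq2 (adjusted p = 0.00723). It ranged from 0.48 without knockout replicate 2 to 0.79, and was called in 0 of the 6 fits without 1 library. The authors' deposited table gives 0.57 with an adjusted p of 0.0175.

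VEGF-A is made in several lengths from the same gene, because exons that encode heparin-binding stretches are used or skipped. The short form diffuses freely, the middle form binds matrix in part, and the long form stays close to the cell that made it. The stretches that separate the annotated classes follow, read 5′ to 3′ on the coding strand from GRCm38 with the GENCODE exons; the exon of 132 bases lies at chr17:46020991-46021122 and that of 72 bases at chr17:46022277-46022348. The first line is the join of flanking exons with both left out, and capitals mark the added exon in the other lines.
Vegfa-201 junction: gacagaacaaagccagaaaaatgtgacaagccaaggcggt
Vegfa-202 exon: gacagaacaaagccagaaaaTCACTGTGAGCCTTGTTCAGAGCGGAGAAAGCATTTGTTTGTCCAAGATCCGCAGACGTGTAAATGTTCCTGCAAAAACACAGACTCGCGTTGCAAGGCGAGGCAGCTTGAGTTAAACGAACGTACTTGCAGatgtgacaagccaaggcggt
Vegfa-207 exon: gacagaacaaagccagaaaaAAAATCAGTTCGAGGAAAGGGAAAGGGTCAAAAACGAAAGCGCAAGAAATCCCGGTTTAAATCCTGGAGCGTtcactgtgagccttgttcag

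The class with the 132-base exon alone (VEGF164 type) held most Vegfa reads in every library, 69.7, 74.7 and 71.5% in knockout and 69.3, 70.1 and 69.3% in control islets. The class with neither exon (VEGF120 type) held 14.2, 12.9 and 15.8% in knockout and 18.5, 14.4 and 20.7% in control islets. The class with both exons (VEGF188 type) held 3.57, 2.29 and 3.54% in knockout and 2.21, 1.63 and 2.10% in control islets, and every knockout library was above every control library. Its mean was 3.13% ± 0.728 in knockout and 1.98% ± 0.306 in control islets (SD, n = 3 each; exact two-sided permutation p = 0.1, the smallest that 3 against 3 allows; adjusted p = 0.4 over 6 shares). The exact two-sided permutation p was 0.2 for the VEGF164 type class, 0.2 for the VEGF120 type class and 0.9 for transcripts with no coding sequence, which held 7.51 to 13.9% of reads over the 6 libraries. By share of reads, the VEGF164 and VEGF188 types were higher and the VEGF120 type lower in knockout in 3 of 3 like-numbered pairs. The permutation leaves this pairing out of account. By share of TPM the VEGF164 type held 37.3, 44.7 and 42.9% in knockout and 40.8, 35.8 and 44.0% in control islets. The VEGF120 type held 9.59, 9.81 and 12.0% of TPM in knockout and 13.8, 9.3 and 16.7% in control islets. For both types these pairs went in both directions, while the VEGF188 type was higher in knockout islets in every pair. A class with the 72-base exon alone held 0% in knockout and at most 0.414% in control libraries. Salmon assigns reads that fit several transcripts by estimate, so these shares carry that error too.

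**Figure D3:**
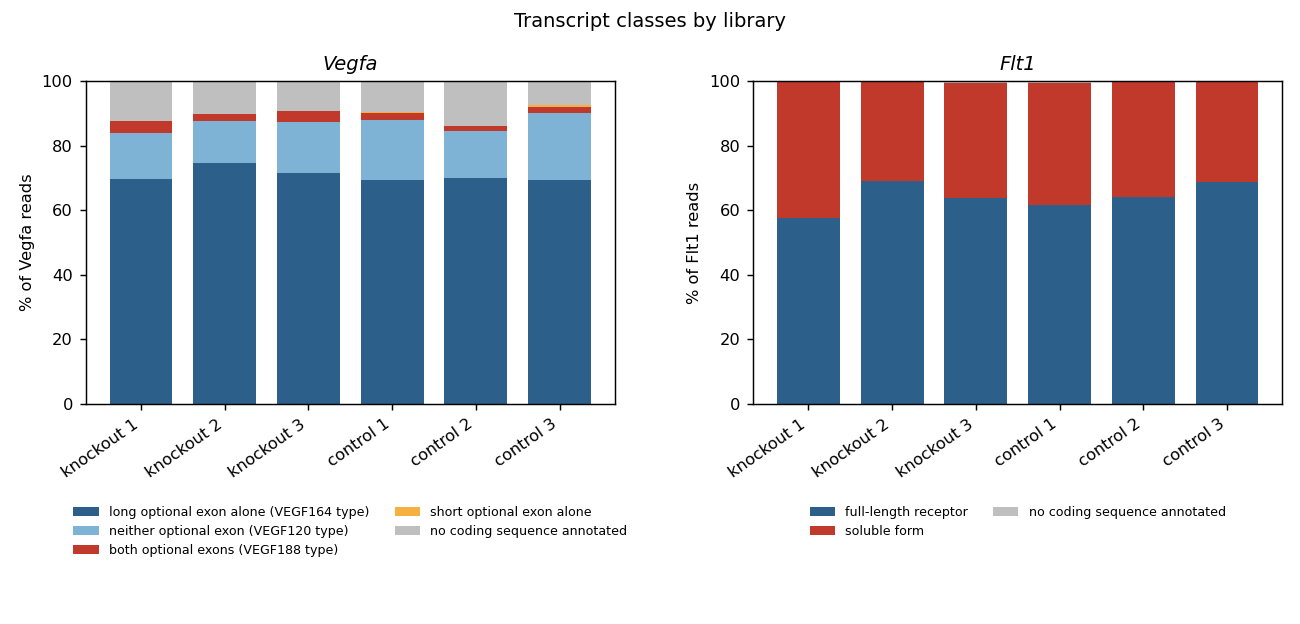
Share of Vegfa reads (left) and Flt1 reads (right) in each transcript class as stacked bars, for knockout and then control libraries. The VEGF164 type class held 69.3 to 74.7% of Vegfa reads in all 6 libraries, and the soluble form of Flt1 held 30.9 to 42.1% of its reads.

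The 2 VEGF receptors did not pass the test. Kdr (chr5:75932827-75978458, minus strand), which encodes VEGFR2, the main signalling receptor, read 214.5, 130.1 and 210.4 CPM in knockout and 184.1, 153.7 and 158.6 CPM in control islets. Knockout replicates 1 and 3 lay above all control libraries and replicate 2 below them. The log2 fold change was 0.16 (SE 0.21, adjusted p = 0.663, edgeR). Without knockout replicate 2 it was 0.36 (adjusted p = 0.135), and with the acinar covariate it was -0.08.

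Flt1 (chr5:147561604-147726011, minus strand), whose product binds VEGF-A tightly and signals weakly, read 193.6, 130.6 and 182.3 CPM in knockout and 155.3, 134.7 and 132.5 CPM in control islets. Its groups overlapped through the same library, and the log2 fold change was 0.26 (SE 0.18, adjusted p = 0.384, quasi-likelihood F test of edgeR). Without knockout replicate 2 it was 0.42 (adjusted p = 0.0946). Kdr and Flt1 have the longest average transcripts of the members, 5729 and 6368 bases of effective length. In knockout replicate 2 they lay at -0.41 and -0.23 from their means on the log2 scale. There Esam (1481 bases) lay at 0.45 and Pecam1 (3068 bases) at 0.40. Plvap (1800 bases) lay at 0.08, below Tie1 (3860 bases) at 0.15 and Tek (4085 bases) at 0.09. With transcript length as an offset the log2 fold changes were 0.16 for Kdr and 0.27 for Flt1. The part of transcript length in the deviations of knockout replicate 2 was not tested.

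Flt1 also makes a secreted form that holds VEGF-A away from its receptors, from a transcript that reads on past an exon end into the next intron and stops. The end of its coding sequence is shown because it is what separates both forms; capitals mark coding bases absent from the full-length transcript (chr5:147639133-147639224, minus strand, GRCm38).
Flt1-203 coding end: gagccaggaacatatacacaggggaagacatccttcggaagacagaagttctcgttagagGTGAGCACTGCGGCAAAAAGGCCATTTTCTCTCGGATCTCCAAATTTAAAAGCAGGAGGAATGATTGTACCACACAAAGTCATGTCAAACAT

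The soluble form held 42.1, 30.9 and 35.7% of Flt1 reads in knockout and 37.8, 35.8 and 31.0% in control islets. The groups overlapped, with means of 36.2% ± 5.62 in knockout and 34.9% ± 3.5 in control islets (SD, n = 3 each; exact two-sided permutation p = 1.0). Kdr reads fell almost all in the full-length transcript, at 99.4 to 100% in all 6 libraries.

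Of 3 genes of endothelial junctions and adhesion, Pecam1 and Esam rose in knockout islets and Cdh5 did not pass the test. Pecam1 (chr11:106654217-106750628, minus strand), which encodes the adhesion molecule CD31, read 119.7, 123.6 and 147.0 CPM in knockout and 76.4, 50.6 and 81.4 CPM in control islets. The groups did not overlap, at a mean of 130.1 ± 14.8 CPM in knockout and 69.5 ± 16.5 CPM in control islets, 1.87-fold higher (SD, n = 3 each). The log2 fold change of 0.90 (SE 0.20) passed the test (adjusted p = 0.0281, by edgeR's test). In the 6 fits without 1 library it ranged from 0.72 to 1.03 and the adjusted p from 0.0526 to 0.1, so the call was kept in 0 of 6.

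Cdh5 (chr8:104101625-104144511, plus strand), VE-cadherin of the adherens junction, read 84.3, 56.5 and 82.9 CPM in knockout and 45.8, 30.1 and 48.9 CPM in control islets. Each knockout library was above each control library. The log2 fold change of 0.84 (SE 0.23) missed the threshold in edgeR (adjusted p = 0.0556). It was called in the fit with the replicate block (adjusted p = 0.00725), in DESeq2 (0.00766) and without knockout replicate 2 (1.01, adjusted p = 0.0428).

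Esam (chr9:37528078-37538319, plus strand), an adhesion molecule of endothelial tight junctions, read 49.2, 50.9 and 43.4 CPM in knockout and 32.6, 25.4 and 29.8 CPM in control islets. The groups were well apart, and knockout replicate 2 was the highest of all. Esam had the lowest adjusted p of the members, at a log2 fold change of 0.71 (SE 0.14, adjusted p = 0.0201, edgeR). It was called in 3 of the 6 fits without 1 library and lost without knockout replicate 1, control replicate 2 or control replicate 3 (highest adjusted p = 0.0849).

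Surface genes of the fenestrated capillary rose as well. Plvap (chr8:71497765-71511752, minus strand), which forms the diaphragms of fenestrae and caveolae, read 230.3, 187.7 and 250.9 CPM in knockout and 152.5, 125.4 and 149.2 CPM in control islets. The groups did not overlap, and the log2 fold change was 0.65 (SE 0.16, adjusted p = 0.0437, quasi-likelihood F test of edgeR; called in 1 of 6 fits without 1 library, the one without knockout replicate 2). Emcn, Esam and Plvap have the shortest average transcripts of the 9 endothelial members (1173, 1481 and 1800 bases). With transcript length as an offset Plvap missed the threshold (0.64, adjusted p = 0.054, edgeR). Pecam1, Esam and Emcn kept their calls in that fit. Plvap overlaps Gtpbp3 on the other strand, which held 325 to 544 reads where Plvap held 2913 to 6671.

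Emcn (chr3:137341067-137432185, plus strand), which encodes the sialomucin endomucin of capillary and venous endothelium, read 92.9, 89.1 and 85.9 CPM in knockout and 66.7, 56.6 and 61.4 CPM in control islets. The knockout libraries lay close together, all above the control libraries. The log2 fold change of 0.54 (SE 0.12) passed (adjusted p = 0.0331, by edgeR's test), and was called in 1 of the 6 fits without 1 library, that without knockout replicate 2.

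The TIE receptors were not called. Tek (chr4:94739289-94874976, plus strand) read 19.7, 20.5 and 25.4 CPM in knockout and 21.5, 13.7 and 17.3 CPM in control islets, with overlapping groups (log2 fold change 0.32, SE 0.20, edgeR adjusted p = 0.343). Tie1 (chr4:118471191-118490061, minus strand) read 62.6, 59.4 and 74.5 CPM in knockout and 54.2, 32.4 and 48.4 CPM in control islets. Its groups did not overlap, and the log2 fold change of 0.54 (SE 0.20) missed the threshold (adjusted p = 0.130, edgeR).

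Reads of the VEGF receptor genes made up a smaller part of the endothelial reads in knockout islets. Kdr held 20.1, 15.3 and 19.1% of the reads of the 9 endothelial members in knockout and 23.3, 24.7 and 21.8% in control islets. Flt1 held 18.1, 15.4 and 16.5% in knockout and 19.7, 21.6 and 18.2% in control islets, while Pecam1 held 11.2, 14.6 and 13.3% in knockout and 9.68, 8.13 and 11.2% in control islets. Kdr reads per Cdh5 read were 2.54, 2.3 and 2.54 in knockout and 4.02, 5.1 and 3.24 in control islets. Flt1 reads per Plvap read were 0.841, 0.696 and 0.727 in knockout and 1.02, 1.07 and 0.888 in control islets. In all 6 ratios of Kdr or Flt1 to Pecam1, Cdh5 or Plvap each knockout library lay below each control library. This was not peculiar to the VEGF receptors, since Tek reads per Pecam1 read were 0.165, 0.166 and 0.173 in knockout and 0.282, 0.271 and 0.212 in control islets, and Tek over Plvap was also lower in every knockout library. Tek over Cdh5 overlapped between the groups. These ratios were chosen after the values were seen and were not tested. Kdr and Flt1 had the smallest log2 fold changes of the members (0.16 and 0.26). Pecam1, Cdh5 and Plvap had larger ones (0.90, 0.84 and 0.65), so lower ratios followed in part from the choice. The share of all gene pairs that separate in this way was not computed. Kdr, Flt1 and Tek also have the longest average transcripts of the members (5729, 6368 and 4085 bases). Those of Cdh5, Pecam1 and Plvap are shorter (3808, 3068 and 1800 bases). Genes over 4000 bases lay above those under 2000 bases in the control libraries and below them in knockout replicate 2. The part of transcript length in these ratios, those of Tek included, was not tested.

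**Figure D4:**
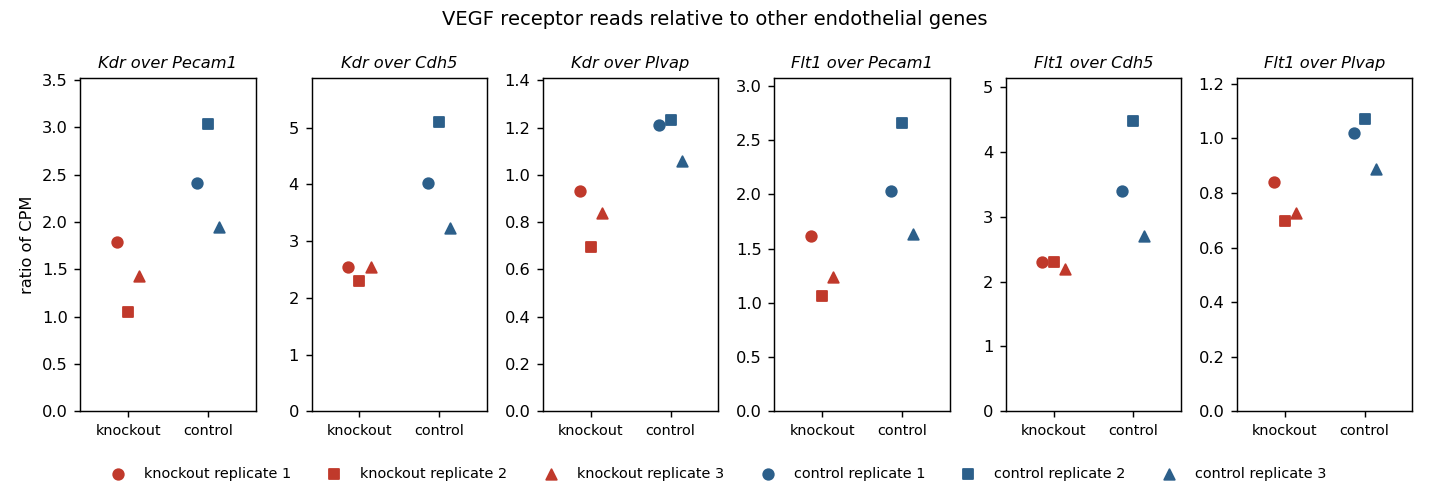
Ratio of Kdr and Flt1 CPM to Pecam1, Cdh5 and Plvap CPM in each library, knockout at the left and control at the right of each panel. In all panels the knockout libraries lie below the control libraries, as for Kdr over Pecam1 at 1.05 to 1.79 in knockout and 1.95 to 3.04 in control islets.

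Levels of different genes were compared per length, as CPM per kilobase of average effective transcript length. Vegfa was highest, at 345.5 ± 71.5 in knockout and 217.4 ± 38.2 in control islets (SD, n = 3 each), followed by Plvap at 123.8 in knockout and 79.2 in control and Emcn at 77.4 in knockout and 51.7 in control islets. Tek was lowest, at 5.77 in knockout and 4.09 in control islets. In knockout islets the order went on with Pecam1 (42.2), Kdr (32.3), Esam (31.2), Flt1 (26.7), Cdh5 (19.6) and Tie1 (17), and neighbours from Kdr to Tie1 overlapped between libraries. In control islets it went on with Kdr (28.9), Pecam1 (22.8), Flt1 (22.1), Esam (20.4), Tie1 (11.6) and Cdh5 (10.9), where Pecam1, Flt1 and Esam overlapped, as did Tie1 and Cdh5. The average length of Vegfa is lowered by transcripts with no coding sequence, which held 34.6 to 53.4% of its TPM over the 6 libraries. Summed over the 9 endothelial members the level was 389.2, 335.9 and 402.5 CPM per kilobase in knockout and 276.3, 221.6 and 257.0 in control islets.

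Other VEGF ligands moved in both directions. Pgf, placental growth factor, a ligand of VEGFR1, read 7.43, 8.19 and 7.86 CPM in knockout and 22.3, 28.6 and 21.2 CPM in control islets. It fell by 1.62 on the log2 scale (SE 0.18, adjusted p = 0.00243, quasi-likelihood F test of edgeR), was called in 6 of 6 fits without 1 library, and held its call with the acinar covariate (adjusted p = 0.0203). Vegfd, a ligand of VEGFR3, read at most 1.37 CPM in any library and was higher in knockout islets by 2.04 on the log2 scale (adjusted p = 0.0388), kept in 0 of 6 such fits. Vegfb (-0.60, adjusted p = 0.0545) and Vegfc (0.72, adjusted p = 0.0792) were not called by edgeR and were called by DESeq2 (adjusted p = 0.017 and 0.0337), with groups that did not overlap. Of 3 genes for co-receptors and VEGFR3, the group-only edgeR fit and DESeq2 called 0. Nrp2 had a log2 fold change of 0.78 and an unadjusted p of 0.0354, and edgeR called it with the replicate block (0.80, adjusted p = 0.0158), while Nrp1 (0.07) and Flt4 (0.10) lay near 0. Of 5 tested genes of the angiopoietin pathway, Angptl2 alone was called (log2 fold change 0.79, adjusted p = 0.029, by edgeR's test, kept in 1 of 6 fits without 1 library), and Angpt2, a TIE2 antagonist, read -0.41 without a call.

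Of 30 further endothelial genes, 3 were called higher and 0 lower, with a median log2 fold change of 0.74, and 29 were positive. DESeq2 called 13 of them, the replicate block 15 and the acinar covariate 0. Cd34, a sialomucin of small vessels, read 73.5, 62.8 and 82.1 CPM in knockout and 34.7, 25.5 and 41.7 CPM in control islets. The groups did not overlap (log2 fold change 1.10, SE 0.20, edgeR adjusted p = 0.0141), and the call was lost without knockout replicate 3 (adjusted p = 0.0575). Ecscr (1.01) and Icam2 (0.99) were called as well, and kept in 2 and 0 of 6 such fits. Of 12 tip, stalk and Notch genes, Kcne3 (2.03) and Unc5b (0.58) were higher and 0 lower, kept in 2 and 0 of 6 fits without 1 library and both lost with the acinar covariate or the length offset. Apln, the apelin ligand of sprouting tips, read 1.48 (adjusted p = 0.106).

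Some genes listed for mural cells and the vascular basement membrane rose too. Of 14 mural cell genes 4 were higher and 0 lower (median log2 fold change 0.82), and 13 were positive. Those called were Mcam at 1.23, the pericyte channel genes Kcnj8 at 1.89 and Abcc9 at 1.40, and Pdgfb at 1.14. Pdgfb is itself an endothelial factor, which recruits pericytes. Pdgfrb (0.59, adjusted p = 0.14) and Rgs5 (0.72, adjusted p = 0.0999) were not called by edgeR. Cspg4 (0.53), Des (0.45), Notch3 (0.27) and Myh11 (-0.25) were not called either. Pdgfb read 25.7, 27.7 and 31.8 CPM in knockout and 12.2, 10.4 and 15.9 CPM in control islets (adjusted p = 0.0109, edgeR). Without knockout replicate 3 the 4 calls were lost. Of 11 vascular basement membrane genes 4 were higher and 0 lower (median 0.86), nidogen 2 (Nid2, 1.01) and the laminin chains Lamc1 (0.86), Lamb1 (1.01) and Lama4 (0.98), all lost without knockout replicate 1, knockout replicate 3 or control replicate 2. DESeq2 called 8 mural and 6 basement membrane genes, the replicate block 7 and 9, and the acinar covariate 0 of each.

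Of 8 tested angiogenesis inhibitors 3 were higher and 0 lower (median 0.79): Sema3f (0.84), Vash1 (0.74), which endothelial cells secrete to restrain sprouting, and Serpinf1 (1.69). Their calls were kept in 1, 0 and 0 of 6 fits without 1 library; the replicate block called 5 inhibitors and the acinar covariate 0. Genes of the hypoxia pathway, which induces Vegfa, gave few calls. Of 21 tested, edgeR called 0, with Ldha and Slc2a1 alone at an unadjusted p below 0.05, and DESeq2 called 1, at a median log2 fold change of 0.11. Ldha read 38.8, 28.9 and 36.8 CPM in knockout and 25.9, 11.2 and 18.2 CPM in control islets (log2 fold change 0.92, adjusted p = 0.0821, quasi-likelihood F test of edgeR).

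**Figure D5:**
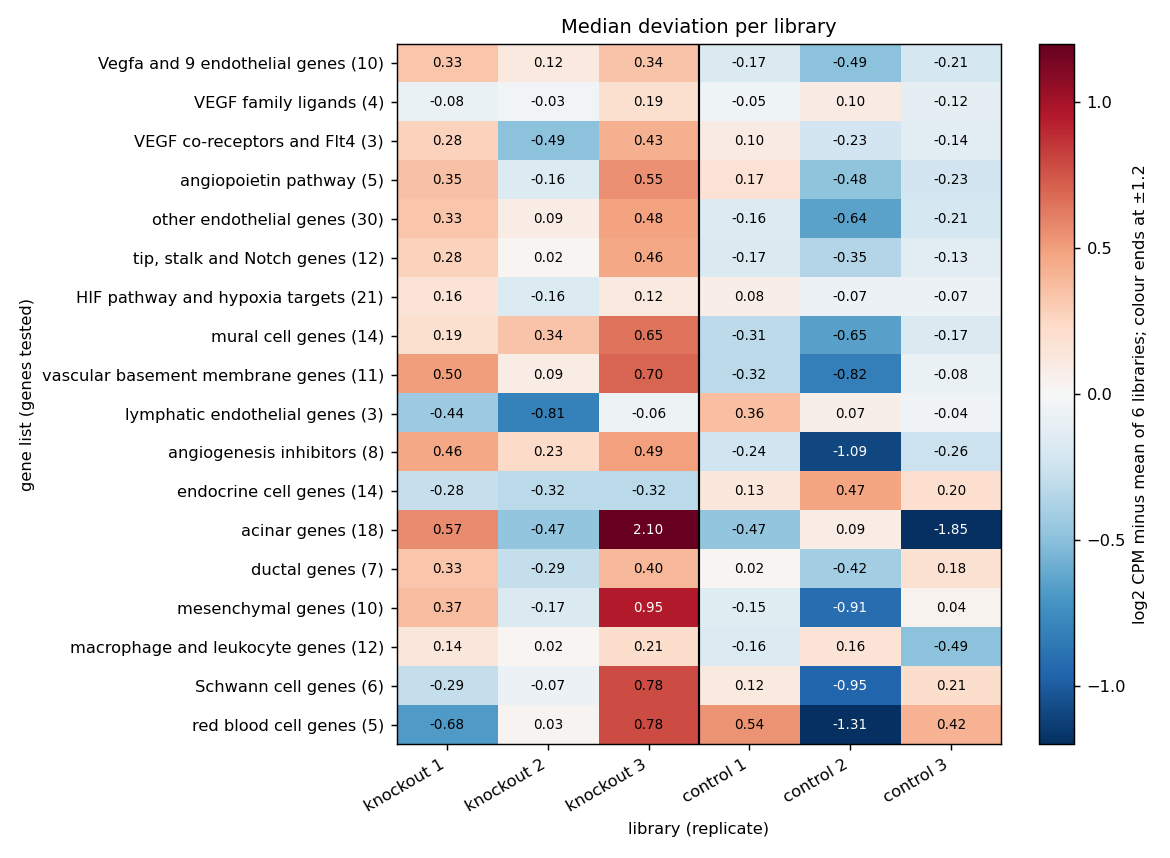
Median deviation of each gene list in each library, as log2 CPM minus the mean of 6 libraries, with lists down the page and knockout libraries left of control libraries. The members and the other endothelial genes lie above 0 in the knockout libraries and below 0 in the control libraries, and acinar genes range from -1.85 to 2.10.

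Markers of other cells moved with the groups in part. Of 10 mesenchymal genes 1 was called higher, Pdgfra at a log2 fold change of 2.22 (adjusted p = 0.00748, by edgeR's test), at a list median of 0.78. DESeq2 called 4 and the replicate block 6 of the 10 higher, and the acinar covariate 0, with Pdgfra at an adjusted p of 0.0646. Their summed level was 77.8 to 192.0 CPM per kilobase in knockout and 55.5 to 98.8 in control islets. Of 12 macrophage and leukocyte genes, Cd68 (1.61) and Mrc1 (1.91) were higher and C1qa (-1.08) lower. Their calls were kept in 6, 1 and 2 of 6 fits without 1 library, and the acinar covariate called 0 in either direction. The summed level of the list was 129.5 to 166.3 CPM per kilobase in knockout and 135.9 to 259.3 in control islets. The lymphatic markers Pdpn, Mmrn1 and Ccl21a were too low to test. Ccl21a had 0 reads in every library but knockout replicate 3. Of the 3 lymphatic genes tested (Lyve1, Reln and Prox1), edgeR and DESeq2 called 0, and 0 had an unadjusted p below 0.05. Lyve1 read 8.39, 7.18 and 11.3 CPM in knockout and 37.6, 8.87 and 11.4 CPM in control islets. Prox1 read 148.2, 54.76 and 81.2 CPM in knockout and 123.9, 100.9 and 96.95 CPM in control islets. The cells that gave these reads were not identified, so the list cannot stand for lymphatic vessels. Of 14 endocrine genes 0 were higher and 3 lower (Isl1 at -1.17, Ppy at -2.38 and Sst at -0.91; median -0.37). DESeq2 called 6 lower and 1 higher and the replicate block 5 lower, and the call of Sst was kept in 2 of 6 fits without 1 library. The part of these cell types in the members' values was not tested.

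Promoter windows of 250 bases before to 50 after the start were matched for 6 of the 10 members in RefSeq on GRCm38.p6, namely Vegfa, Kdr, Flt1, Emcn, Tek and Tie1. They are shown for a called member and for both VEGF receptors because trimethylation at lysine 4 of H3 is concentrated at starts rich in CG. Capitals mark CG dinucleotides, 2 at Emcn (chr3:137340828-137341127, plus strand), 19 at Kdr (chr5:75978406-75978705, minus strand) and 29 at Flt1 (chr5:147725962-147726261, minus strand).
Emcn promoter: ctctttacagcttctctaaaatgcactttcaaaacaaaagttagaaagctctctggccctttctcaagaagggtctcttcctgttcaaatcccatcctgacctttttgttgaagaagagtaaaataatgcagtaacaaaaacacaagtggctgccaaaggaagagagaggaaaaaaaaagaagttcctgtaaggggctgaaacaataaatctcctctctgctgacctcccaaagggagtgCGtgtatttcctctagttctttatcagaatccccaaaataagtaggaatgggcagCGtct
Kdr promoter: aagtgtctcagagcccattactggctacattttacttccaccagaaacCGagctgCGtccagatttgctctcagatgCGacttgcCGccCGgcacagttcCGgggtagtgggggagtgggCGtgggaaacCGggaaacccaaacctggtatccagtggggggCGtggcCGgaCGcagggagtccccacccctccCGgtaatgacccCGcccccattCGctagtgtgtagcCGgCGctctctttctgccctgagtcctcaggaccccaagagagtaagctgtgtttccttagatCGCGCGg
Flt1 promoter: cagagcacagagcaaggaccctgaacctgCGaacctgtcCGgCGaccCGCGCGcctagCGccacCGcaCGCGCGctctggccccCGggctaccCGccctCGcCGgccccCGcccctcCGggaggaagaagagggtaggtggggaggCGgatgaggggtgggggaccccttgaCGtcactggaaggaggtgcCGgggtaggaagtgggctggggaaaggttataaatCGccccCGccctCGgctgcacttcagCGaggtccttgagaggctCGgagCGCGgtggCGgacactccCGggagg

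Over 32851 windows of the same length the median was 7 CG, and 14.1% of windows held fewer than Emcn, 71.9% fewer than Kdr and 87.1% fewer than Flt1. Tek held 3, Tie1 7 and the Vegfa windows 16 and 10. The Vegfa window with 16 lies at the 5′ end of the gene (chr17:46032328-46032627, minus strand). That with 10 belongs to a start inside the gene (chr17:46025114-46025413). The motif GGAA, the core bound by ETS factors that act at many endothelial genes, was searched on both strands (GGAA or TTCC). It occurred 6 times at Emcn, 5 at Kdr, 4 at Flt1, 2 at Tek, 9 at Tie1 and 6 and 3 at the Vegfa windows. In the same order, 15.7, 28.6, 46.3, 84.6, 1.59, 15.7 and 66.3% of all windows held at least as many. The median window held 3, and 96.0% held at least 1. No chromatin mark was measured in these libraries.

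Genes outside the lists whose level followed the mean of the 9 endothelial members most closely over 6 libraries were C1s1, Yap1, Wwc2, Zc4h2 and Nudt10. Their root mean square differences from it on the log2 scale were 0.0477 for C1s1 and 0.0711 to 0.0754 for the others, among 10871 genes. A flat profile over the libraries lay at 0.318 from the endothelial mean and at 0.39 from Vegfa. The nearest genes were picked for closeness among many, and their closeness was not tested. Vegfa followed another pattern, high in knockout replicate 2 (0.71 above its mean on the log2 scale), and its nearest genes were Spsb3, Ndufb7, Ndufs5, Mea1 and Lsm4, at 0.0401 to 0.0494. These neighbours lay at 0.62 to 0.77 in that library, where genes under 2000 bases lay high as a group. The part of transcript length in this pattern was not tested.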

How the data were processed

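Polyadenylated RNA of islets from 3 Dpy30 knockout and 3 control mice was analysed from processed files. For every library the authors deposited transcript-level Salmon output, that is estimated counts, TPM and effective lengths, per the file headers. Their deposited comparison gives a log2 fold change, p-values and a mean signal for each gene, per the file headers. It is quoted only where named, and 6 per-sample value columns of a scaled table were not used. Builds GRCm38 and mm10 and the tools Trimmomatic, Salmon and DESeq2 stand in the submitters' processing notes, with versions not given in the sources used here.

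Transcripts were matched to genes in GENCODE release vM21 (139852 of 140948; 99.6 to 99.7% of reads). Estimated counts were summed per gene, rounded and filtered by filterByExpr (minimum count 10), which left 16430 genes. Scaling was by TMM, and edgeR 4.0.16 (R 4.3.3) gave two-sided quasi-likelihood tests with group as the only term and Benjamini-Hochberg adjustment over all tested genes at 0.05. CPM are TMM-scaled, and log2 CPM use a prior count of 2. Levels per kilobase divide CPM by average effective length. Transcript shares were tested by exact permutation over libraries. The procedure was tested on simulated data. Libraries were made with a strand-specific kit, per the labels' protocols; the strand setting used in counting is not stated there.

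Named genes are the members, up to 5 genes of smallest p per gene list, Dpy30, and the 5 genes nearest the endothelial mean and the 5 nearest Vegfa (at least 5 CPM). Some mural cell genes without a call are named as well. Members, lists and ratios were chosen with earlier results of these data known. Ductal, Schwann and red blood cell genes were followed as lists: 1 higher and 1 lower of 7 ductal genes, and 0 called by edgeR or DESeq2 of 6 Schwann (2 with an unadjusted p below 0.05) and 5 red blood cell genes (0 with one).

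Replicate numbers are shared between groups in the labels. Deviations from group means correlated at 0.548, 0.13 and 0.156 for the like-numbered pairs 1 to 3. Each exceeds 0.1, the limit used to call numbers paired, on weak evidence (different numbers ran from -0.41 to 0.243). The calls and the permutation tests leave the pairing out, and the replicate block is given as an alternative. Alternatives were DESeq2 1.42.0, limma-voom (limma 3.58.1), other scalings, no filter, a length offset, the replicate block, an acinar covariate, Gm42418 left out and each library left out. With 3 mice per group, p-values rest on small samples.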

Additional observations from a re-analysis of the deposited data

How the results depend on the processing

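Over 15 alternative settings per gene, the members kept direction and side of the threshold in 117 of 150 gene-settings, were no longer called in 26, became called in 6 and reversed in 1. Kdr was at -0.08 with the acinar covariate. Members called higher numbered 4, and 0 with the acinar covariate, 0 to 4 when 1 library was left out, 6 with DESeq2, 3 with no filter or the length offset, and 4 or 5 in the remaining settings; 0 were called lower in any. Over all genes 1634 were called, 674 higher and 960 lower. DESeq2 called 2635, 1198 of them higher; the acinar covariate 605, 207 higher and 398 lower; fits without 1 library 737 to 1330, 243 to 550 higher and 464 to 780 lower. The replicate block called 1138 genes higher, and among the members added Cdh5 and changed no other call. Other reversals were Flt4 (-0.19) and Nrp1 (-0.22) with the acinar covariate, Col6a3 with the length offset (-0.16), and when 1 library was left out Flt4 ranged from -0.12 to 0.34 Nrp1 from -0.07 to 0.28 and Prox1 from -0.66 to 0.10 (positive without knockout replicate 2). The cause was not tested. Under each alternative the transcript share differences moved by less than the SD of the more variable group. The difference of the VEGF188 type ranged from 0.937 to 1.57 percentage points when 1 library was left out, and that of soluble Flt1 ranged from -1.58 to 4.03. The median log2 fold change of all genes lay between -0.014 and 0.0237 in all settings.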
